A study of Mus musculus with 6 samples.

Results

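The nuclear genes of the mitochondrial Slc25 carriers were described in 6 RNA-seq libraries of mouse CD4+ T cells. A gene was taken as a member when its name in the deposited tables was Slc25a followed by a number, which gave 44 of 21362 genes. The rule reads only the gene name. Its topic was sorafenib, an inhibitor of several protein kinases, given to regulatory T cells, with untreated cells beside them. For a library the labels hold a number and the cell type, without mouse strain, age, genotype, dose or time. Treatment is not assigned to any library, so no groups were formed and nothing was compared between treated and untreated cells. Each library goes by the number of its title, from library 1 to library 6, and a run of 6 values follows these numbers. Whether separate mice or cultures gave the libraries is not stated.

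Slc25 carriers are small proteins that span the inner mitochondrial membrane and exchange metabolites between the mitochondrial matrix and the cytosol. They move ATP out and ADP and phosphate in, and they carry amino acids, carboxylates, cofactors, iron and glutathione, so they tie respiration to biosynthesis. Proliferating T cells need both, because nucleotides, lipids and amino acids for new cells are partly made from mitochondrial metabolites. Members of the family with other names, such as the uncoupling protein Ucp2, fall outside the name rule and are given after the carriers.

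Total counts over genes lay between 32435799 and 36316162. Levels within a gene are CPM, counts scaled to a common library total after scaling for library composition. Levels of different genes are compared in FPKM, which divides by gene length. Levels and ratios between genes depend on the lengths behind the deposited values, which were not checked. The change of a ratio between libraries does not depend on them. All 6 T cell markers of a fixed list were measured, with Lck, the proximal kinase of the T cell receptor, at a median of 163 FPKM and Cd28, the co-stimulatory receptor, ranging 1.67-fold. Of 2 CD8 T cell markers, Cd8b1 was measured, between 8.15 and 9.57 CPM, while Cd8a stayed between 0.231 and 0.661 CPM. Summed levels were 1.86 to 3.42 CPM for 3 B cell markers, led by Cd79a at a median of 1.20 FPKM, and at most 0.694 CPM for 4 myeloid and 1.18 CPM for 3 erythroid markers. The libraries did not stand evenly apart. A chi-square per gene was taken over genes above a minimum of reads in the pair. It used plain totals, which leave in differences of library composition. Its value was 3.61 to 6.10 for pairs among libraries 1, 2 and 3 or among libraries 4, 5 and 6. For pairs across these sets it was 43.4 to 53.2. Libraries 1, 2 and 3 had 1.90% to 2.02% of counts in protein-coding genes of the mitochondrial genome, 1.86 to 2.31 CPM of B cell markers and 2200 to 2312 CPM of T cell markers. Libraries 4, 5 and 6 had 2.37% to 2.45%, 3.19 to 3.42 CPM and 1877 to 1919 CPM. The share of counts used plain totals, which are not scaled for composition as the CPM are. The T cell markers did not move together. Cd28 stood at 848, 786, 783, 524, 510 and 507 CPM, while Cd4 stood at 436, 426, 412, 480, 475 and 482 CPM. Cd3d, Cd3g and Lck were also lower in libraries 4, 5 and 6, and Cd3e ranged 1.09-fold. The part of these differences between the sets in the values of the carriers was not tested. In bulk RNA, fewer cells of a type and less RNA per cell cannot be told apart.

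The carriers spanned a wide range of levels. The phosphate carrier gene Slc25a3, whose protein brings in the phosphate used for ATP synthesis, led with a median of 298 FPKM and ranked 179 of the 11516 genes that averaged 1 CPM or more. Slc25a5 and Slc25a4, which encode 2 ADP/ATP carriers, followed with medians of 264 and 118 FPKM. These 3 genes made up 72.0%, 72.0%, 72.0%, 70.3%, 70.8% and 71.2% of the summed FPKM of the family. The 10 most abundant carriers made up between 86.4% and 87.4% in every library. The other 7 were Slc25a17, Slc25a51, Slc25a36, Slc25a1, Slc25a11, Slc25a24 and Slc25a37, with medians between 13.1 and 31.2 FPKM. Of the 44 members, 36 averaged 1 CPM or more and are called measured, and 17 of these lay above 7.56 FPKM, the median of all genes at that level.

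**Figure D1:**
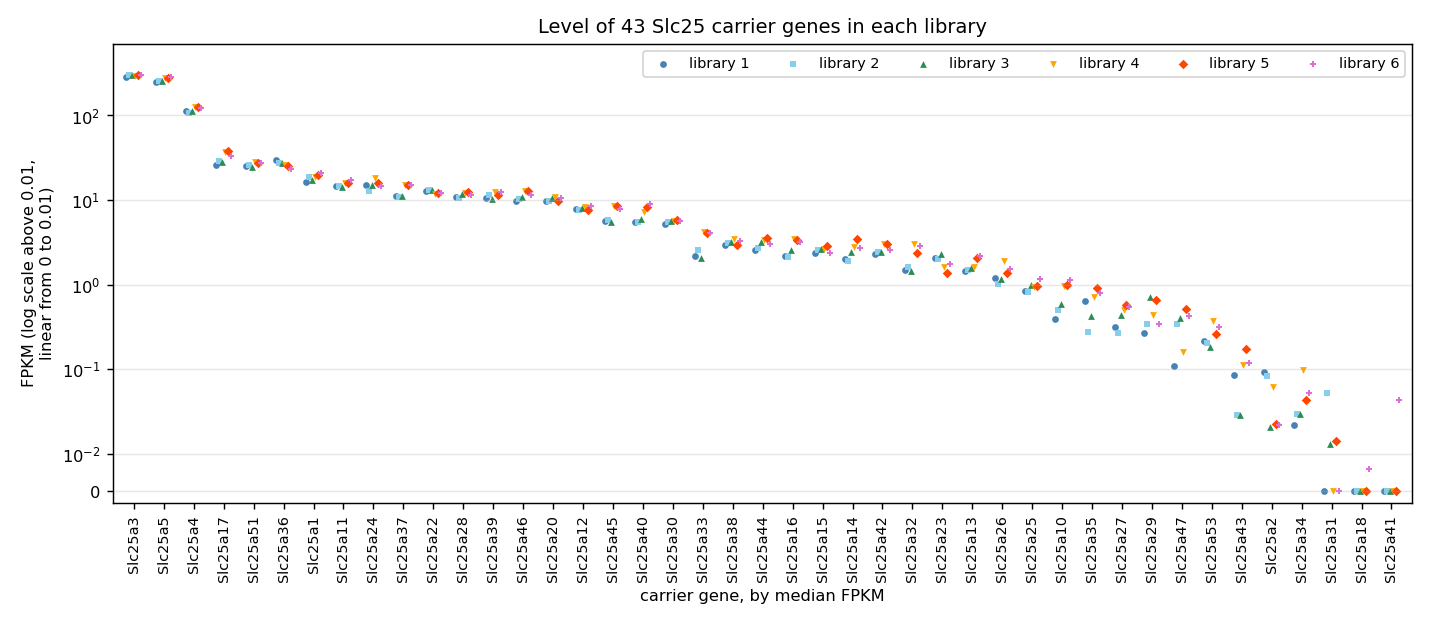
FPKM of 43 carrier genes (vertical axis, logarithmic above 0.01 and linear below) ordered by median, with 1 point per library. Slc25a3, Slc25a5 and Slc25a4 stand above 100 FPKM in every library, and the points of a gene spread more at low levels.

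The 8 members below that level were Slc25a2, Slc25a18, Slc25a29, Slc25a31, Slc25a34, Slc25a41, Slc25a43 and Slc25a47. Slc25a18, the second glutamate carrier gene, had 1 read in library 6 and 0 in the other libraries. Slc25a41, an ATP-Mg/phosphate carrier gene, had 2 reads in library 6 and 0 elsewhere. Both stayed within the limit that a count of 0 allows, 3 reads or between 0.0791 and 0.0966 CPM. Slc25a31, the ADP/ATP carrier gene of male germ cells, had at most 4 reads. Slc25a29, a carrier gene for basic amino acids, came closest to the filter, with 0.547, 0.694, 1.43, 0.817, 1.24 and 0.647 CPM.

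Taken as 1 pool, the family held its level across the libraries after scaling for composition. The summed level of the 44 genes was 2008, 2023, 2043, 2016, 2011 and 2035 CPM, so the highest library was 1.02-fold above the lowest. Without the 3 leading genes the sum lay between 1001 and 1033 CPM. As a share of all counts, which applies no such scaling, the family took 0.192%, 0.194%, 0.198%, 0.211%, 0.210% and 0.210%. The widest 95% interval of these shares ran from 0.208% to 0.212% in library 5, so libraries 4, 5 and 6 stood above the other libraries beyond counting error in this measure. The composition factors differ between libraries by up to 0.12 log2 units, and levels in libraries 4, 5 and 6 are set lower by them relative to plain totals. Levels and ranges of single carriers are given with these factors, and intervals cover counting error only.

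**Figure D2:**
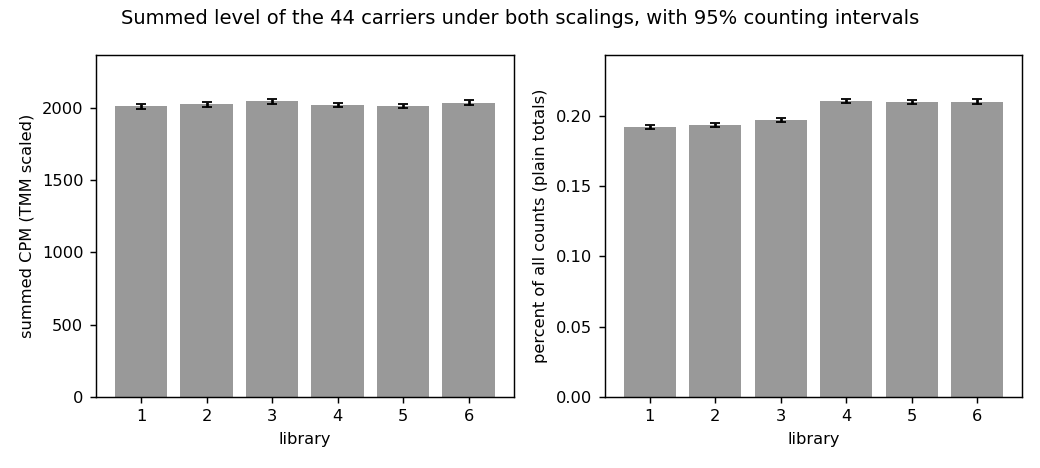
Summed level of the 44 carriers in each library, as CPM after composition scaling (left) and as percent of all counts (right), with 95% intervals for counting error. The left bars lie between 2008 and 2043 CPM, and the right bars between 0.192% and 0.211%.

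The median range of single carriers was close to that of all genes. A range here means the level in the highest library divided by that in the lowest, taken from log2 CPM after adding a prior count of 2. Of the 36 measured carriers, 10 ranged 1.5-fold or more, or 27.8%, against 27.6% of all 11516 genes at that level. Slc25a35 and Slc25a10 ranged 2-fold or more, which is 5.56% of the carriers, against 10.5% of all genes. With plain totals in place of composition scaling, 6 of 36 ranged 2-fold or more, or 16.7%, which lay above the 11.2% of all genes. The median carrier ranged 1.30-fold and the median gene 1.29-fold. Low genes ranged more than abundant ones in both sets. Among members that averaged 10 CPM or more, 2 of 23 ranged 1.5-fold or more, or 8.70%, against 13.5% of all such genes, and 0 ranged 2-fold, against 3.33% of all genes. With composition scaling these shares lay near or below those of all genes, and no test was made between them. In order of level, libraries 4, 5 and 6 all stood above libraries 1, 2 and 3 for 14 of the 36 carriers, against 30.3% of all genes, and the reverse held for 4 carriers, against 29.1%. The widest gap between neighbouring libraries fell at that place for 5 carriers, against 16.1% of all genes, and in the reverse order for 3, against 18.7%. These counts are values without a test, since the labels do not name such sets, and an order takes no account of counting error. A chi-square per carrier, with composition scaling, was 2.97 to 6.03 for pairs of libraries within these sets and 15.5 to 21.0 for pairs across them. It cannot be set against the chi-square per gene, which used plain totals.

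**Figure D3:**
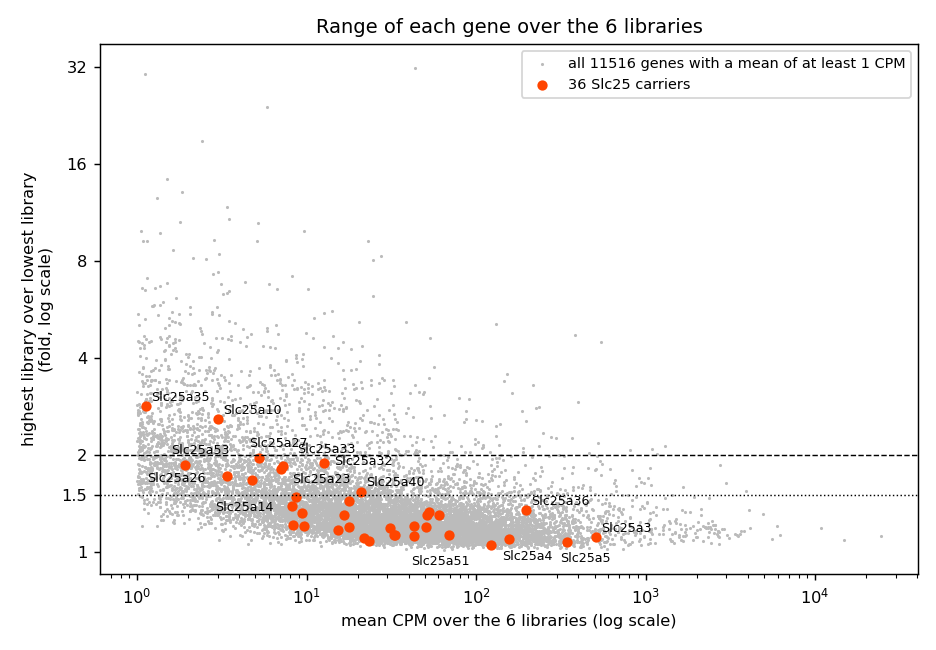
Highest over lowest library (fold, log scale) against mean CPM (log scale) for 36 carriers in orange and 11516 genes in grey, with lines at 1.5-fold and 2-fold. Slc25a35 and Slc25a10 lie above 2-fold, and the 5 carriers that averaged over 100 CPM lie below 1.5-fold.

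The ADP/ATP carriers and the phosphate carrier, which together supply the ATP synthase, were nearly flat with composition scaling. Slc25a5 stood at 333, 342, 339, 341, 348 and 358 CPM. Slc25a4 stood at 156, 147, 155, 161, 160.1 and 159 CPM, lowest in library 2. Slc25a3 stood at 513, 533, 535, 481, 489.5 and 501 CPM, lowest in library 4, whereas in FPKM, which follows plain totals, library 1 was lowest. These ranges were 1.08-fold (95% interval 1.05 to 1.10), 1.10-fold (1.06 to 1.14) and 1.11-fold (1.09 to 1.14). Each interval lies above 1, but the pair was chosen as the extremes of 6, so the intervals are too narrow. With plain totals the ranges were 1.16-fold for Slc25a5, 1.20-fold for Slc25a4 and 1.05-fold for Slc25a3. Of the 50-base windows in the GENCODE M21 transcripts of Slc25a5, 46.6% also occur in transcripts of other genes, 9 of them annotated as pseudogenes, and its level is uncertain to that extent. For Slc25a3 that share was 3.09%.

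The pyrimidine nucleotide carriers Slc25a33 and Slc25a36, which bring in nucleotides for mitochondrial RNA and DNA synthesis, were ordered oppositely. Slc25a33 stood at 5.21, 6.19, 4.93, 9.20, 8.82 and 8.97 CPM, a range of 1.86-fold (95% interval 1.55 to 2.25). Slc25a36 stood at 228, 211, 212, 184, 178 and 169.5 CPM, a range of 1.35-fold (1.30 to 1.39). Slc25a33 was higher in libraries 4, 5 and 6 than in any other library, and Slc25a36 was lower in those libraries. Of the exonic bases of Slc25a33, 14.9% overlap Gm13068, a gene annotated on the opposite strand in GENCODE M21. The strand setting of the counting is not given, so reads of both genes cannot be told apart there.

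The sequences upstream of both members of each carrier pair whose ratio varied 2-fold or more are shown, to place motifs beside the values. They are the 250 bases before the start of the gene in the RefSeq table for GRCm38.p6, at chr4:149774268-149774517 (minus strand) for Slc25a33, chr9:97111042-97111291 (minus) for Slc25a36, chr11:120491587-120491836 (plus) for Slc25a10 and chr11:70647040-70647289 (minus) for Slc25a11. Capitals mark the E-box CACGTG, the site of MYC and related factors, and the CCAAT box, searched as CCAAT on both strands.
Slc25a33: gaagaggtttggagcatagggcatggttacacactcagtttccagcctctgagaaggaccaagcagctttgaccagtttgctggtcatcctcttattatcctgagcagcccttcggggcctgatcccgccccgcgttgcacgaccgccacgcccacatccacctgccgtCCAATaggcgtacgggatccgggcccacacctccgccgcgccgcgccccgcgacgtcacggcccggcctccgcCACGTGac
Slc25a36: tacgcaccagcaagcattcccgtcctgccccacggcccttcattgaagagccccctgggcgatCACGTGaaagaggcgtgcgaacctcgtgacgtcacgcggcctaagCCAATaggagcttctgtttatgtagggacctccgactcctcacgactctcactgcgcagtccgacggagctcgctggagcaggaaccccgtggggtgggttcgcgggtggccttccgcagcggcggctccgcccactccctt
Slc25a10: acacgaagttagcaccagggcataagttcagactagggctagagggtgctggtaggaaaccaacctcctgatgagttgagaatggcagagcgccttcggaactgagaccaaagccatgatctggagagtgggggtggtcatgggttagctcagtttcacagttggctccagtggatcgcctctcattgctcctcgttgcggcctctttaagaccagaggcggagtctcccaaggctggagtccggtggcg
Slc25a11: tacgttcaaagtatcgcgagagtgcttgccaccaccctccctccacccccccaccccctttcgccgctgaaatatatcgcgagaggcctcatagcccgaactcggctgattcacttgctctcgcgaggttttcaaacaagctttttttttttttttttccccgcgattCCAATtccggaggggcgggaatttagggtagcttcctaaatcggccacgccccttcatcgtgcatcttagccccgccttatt

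Both pyrimidine carriers held an E-box and a CCAAT box in this window, while Slc25a10 held neither and Slc25a11 a CCAAT box. Of the 44 members, 33 had an entry in the promoter table, and the first listed window of each gene was searched. An E-box occurred in 6 of these 33 windows, or 18.2%, and in 6.05% of the windows of all 27025 genes. A CCAAT box occurred in 15, or 45.5%, against 34.5% of all genes. The NRF1 core, a motif of nuclear genes for mitochondrial proteins, occurred in 0 of the carrier windows and in 0.781% of all windows. At so low a share, 0 of 33 windows does not tell whether the carriers lack the motif more than other genes. Carrier windows had a median GC content of 59.6%, against 52.0% over all genes, and the part of base composition in these shares was not tested. A match is a description of letters and not of a bound site.

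The calcium-regulated carriers, which exchange ATP-Mg for phosphate and so set the adenine nucleotide pool of the matrix, differed from each other. Slc25a24 was the most abundant, with 52.9, 45.0, 52.2, 58.6, 51.6 and 48.4 CPM. Slc25a23 stood at 8.27, 7.86, 9.01, 5.93, 4.94 and 6.38 CPM, a range of 1.81-fold (95% interval 1.51 to 2.21), and was lower in libraries 4, 5 and 6 than in the others. Slc25a25 stood at 8.79, 8.53, 10.1, 8.81, 9.20 and 11.3 CPM, highest in library 6. In FPKM, Slc25a24 was 7.18, 6.41, 6.50, 11.1, 11.7 and 8.51 times Slc25a23. Slc25a24 was 12.6 to 19.6 times Slc25a25, with the highest ratio in library 4 and the lowest in library 6.

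Among the carriers of cofactors, Slc25a51, the mitochondrial NAD+ carrier gene, had the smallest range of the 36 carriers, 1.05-fold, with 123, 124, 118, 124, 121 and 122 CPM. Slc25a32, whose protein carries folate and FAD into mitochondria and so serves one-carbon metabolism, stood at 9.27, 10.1, 9.03, 17.1, 13.4 and 16.6 CPM. Its range of 1.89-fold (95% interval 1.66 to 2.18) was the largest of the members that averaged 10 CPM or more. The lowest of libraries 4, 5 and 6 lay above the highest of the other libraries for this gene. Slc25a16, a carrier linked to coenzyme A, stood at 7.11, 6.85, 8.35, 10.2, 9.97 and 9.50 CPM. Slc25a17, the peroxisomal carrier of coenzyme A and related cofactors, stood at 45.0, 50.6, 49.0, 58.6, 59.9 and 53.6 CPM, a range of 1.33-fold. Slc25a26, which brings in the methyl donor S-adenosylmethionine, ranged 1.72-fold, with 4.61 CPM in library 4 as its highest and 2.66 CPM in library 2 as its lowest level. Slc25a42, the coenzyme A carrier, ranged 1.21-fold. Of the 7 measured cofactor carriers, 2 ranged 1.5-fold or more, a share near the 27.6% of all measured genes.

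Of the 6 measured amino acid carriers, all averaging over 5 CPM, 0 ranged 1.5-fold or more, where 17.3% of all genes at that level did. Slc25a12 and Slc25a13 encode the aspartate/glutamate carriers of the malate-aspartate shuttle, which moves reducing equivalents into mitochondria. Slc25a12 stood at 71.2, 69.1, 72.2, 68.5, 63.8 and 72.2 CPM. Slc25a13 was lower and stood at 7.27, 7.31, 7.77, 7.36, 9.34 and 10.1 CPM, highest in libraries 5 and 6. In FPKM, Slc25a12 was 5.39, 5.21, 5.11, 5.13, 3.76 and 3.93 times Slc25a13. The 95% interval was 3.35 to 4.24 in library 5 and 4.51 to 5.82 in library 3, and these intervals do not overlap. Slc25a22, the main glutamate carrier gene here, stood at 45.2, 46.6, 47.0, 38.9, 40.0 and 39.8 CPM and was lower in libraries 4, 5 and 6. Slc25a15, the ornithine carrier of the urea cycle, stood at 9.30, 9.97, 10.2, 9.47, 10.4 and 8.60 CPM. Slc25a44, the branched-chain amino acid carrier, and Slc25a38, a glycine carrier needed for haem synthesis, ranged 1.30-fold and 1.17-fold. The partner genes Slc25a18 and Slc25a2 of the glutamate and ornithine pairs were not measured, with at most 1 and 4 reads, so no ratio is given.

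**Figure D4:**
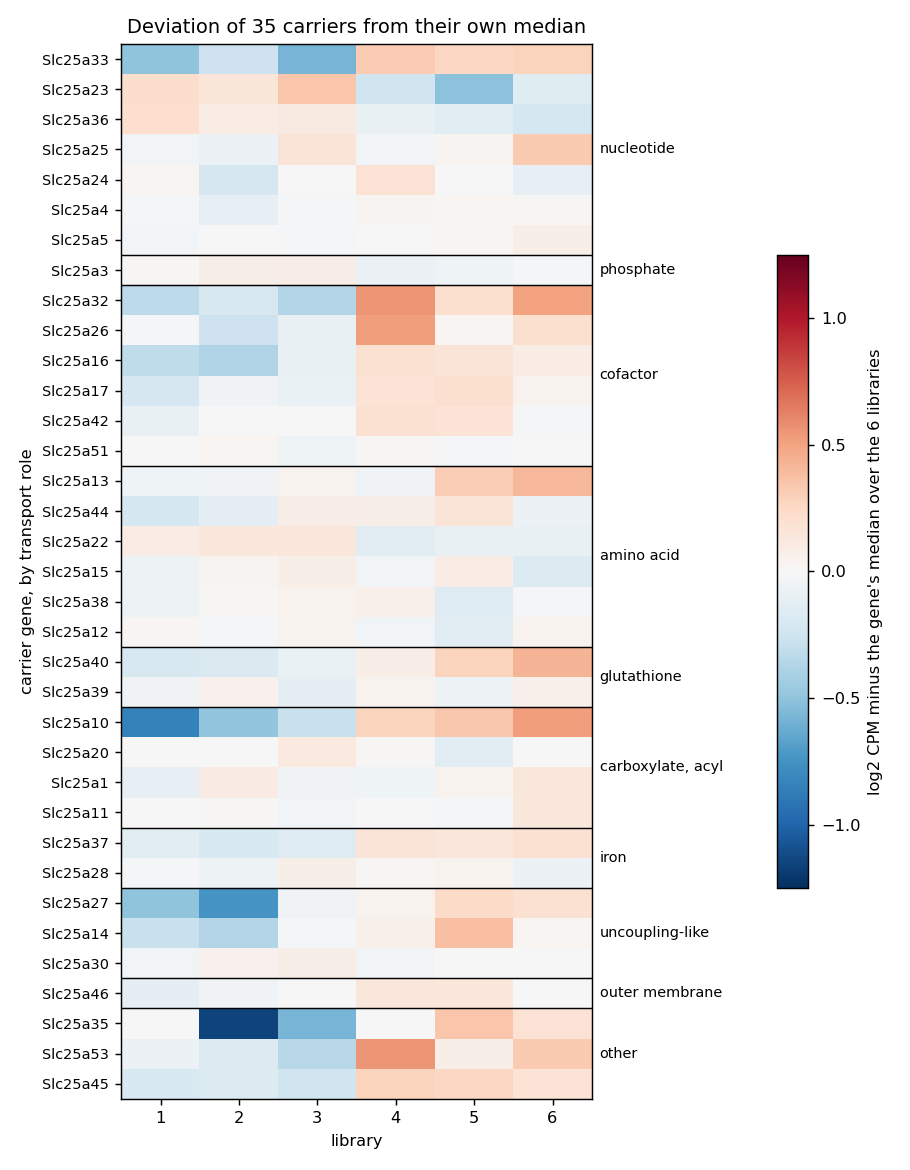
Difference of 35 measured carriers from their own median over the 6 libraries (colour, log2 CPM), with carriers grouped by transport role and libraries in columns. The deepest value is -1.16 for Slc25a35 in library 2, and Slc25a10 runs from -0.85 in library 1 to 0.52 in library 6.

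The glutathione carriers differed in range. Slc25a39 and Slc25a40 import glutathione, the main thiol antioxidant of mitochondria. Slc25a39 stood at 32.7, 34.9, 31.2, 34.6, 32.2 and 35.1 CPM. Slc25a40 stood at 17.3, 17.5, 18.8, 21.0, 24.2 and 26.7 CPM, a range of 1.54-fold (95% interval 1.39 to 1.72). Libraries 5 and 6 were the highest for Slc25a40, while no library stood apart for Slc25a39. The ratio of Slc25a39 to Slc25a40 in FPKM was 1.94, 2.06, 1.71, 1.70, 1.37 and 1.36. One annotated pseudogene shares 9.94% of the 50-base windows of Slc25a40.

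The carboxylate and acyl carriers link the tricarboxylic acid cycle to fatty acid metabolism. Slc25a10, which exchanges malate and succinate for phosphate, was low and had the largest range of the members that averaged 2 CPM or more, 2.58-fold (95% interval 1.91 to 3.70). It stood at 1.64, 2.11, 2.47, 3.64, 3.79 and 4.33 CPM, from 51 to 154 reads, and its levels in libraries 4, 5 and 6 lay above those of the other libraries. Slc25a11, the malate/2-oxoglutarate carrier, stood at 32.3, 32.6, 31.4, 32.2, 31.7 and 35.7 CPM. The ratio of Slc25a10 to Slc25a11 in FPKM was 0.0268, 0.0341, 0.0414, 0.0595, 0.0630 and 0.0640. Slc25a1, the citrate carrier that supplies cytosolic acetyl-CoA, stood at 28.7, 33.1, 29.9, 29.7, 31.9 and 34.2 CPM. Slc25a20, the carnitine/acylcarnitine carrier of fatty acid oxidation, ranged 1.20-fold. For 3 of these 4 carriers the range therefore stayed at or below 1.20-fold. Of the exonic bases, 6.60% of Slc25a10 and 8.92% of Slc25a11 overlap a gene on the opposite strand.

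**Figure D5:**
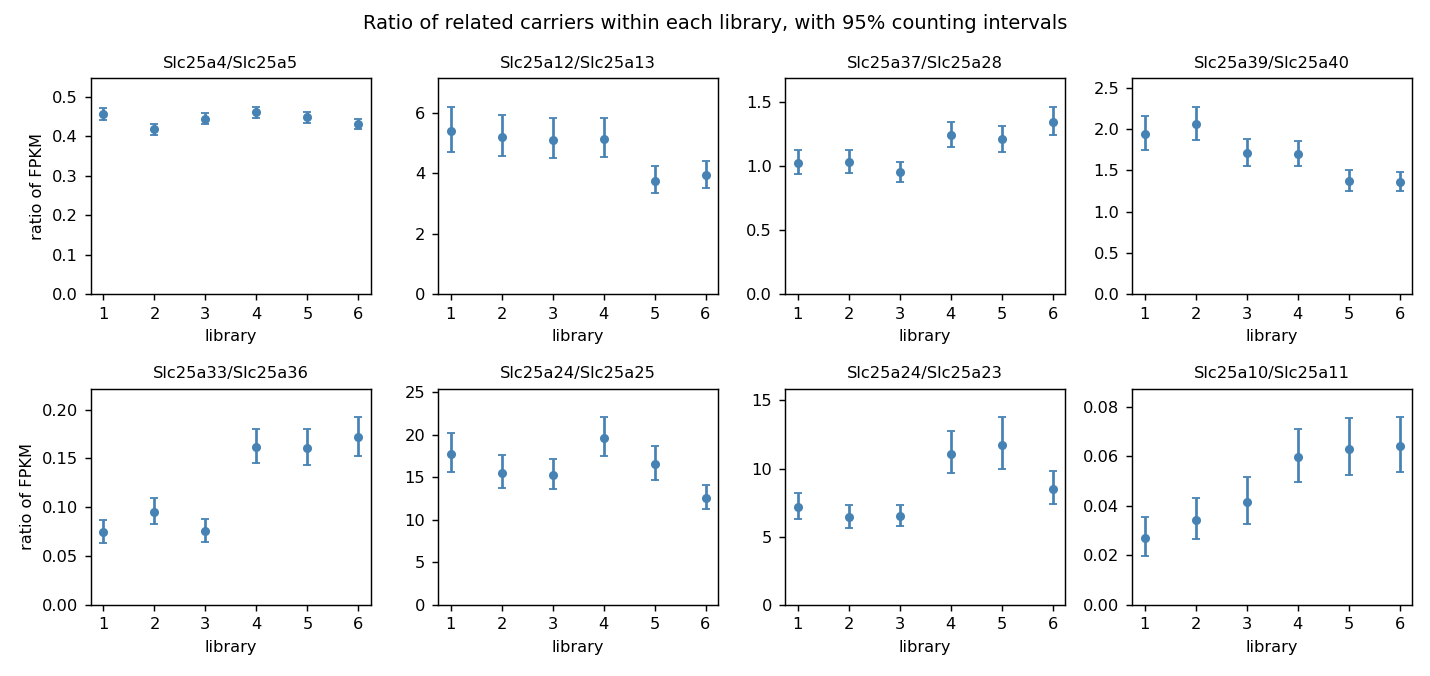
Ratio of FPKM between related carriers within each library (vertical axes start at 0), with 95% intervals for counting error. Slc25a33 over Slc25a36 lies between 0.161 and 0.172 in libraries 4, 5 and 6 and between 0.0741 and 0.0952 in the others, while Slc25a4 over Slc25a5 stays between 0.417 and 0.461.

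The mitoferrins Slc25a37 and Slc25a28 bring iron in for haem and iron-sulphur clusters, and Slc25a37 is best known from developing red cells. Slc25a37 stood at 54.7, 53.0, 54.0, 67.5, 66.8 and 68.9 CPM, a range of 1.30-fold (95% interval 1.22 to 1.38). Slc25a28 stood at 21.6, 20.8, 22.9, 21.9, 22.3 and 20.7 CPM. Per length, Slc25a37 stood at 1.02, 1.03, 0.952, 1.24, 1.21 and 1.35 times Slc25a28. With the lengths behind the deposited FPKM, the pair was nearly even in libraries 1, 2 and 3. The 95% intervals of the ratio, which cover counting error only, lay above 1 in libraries 4, 5 and 6. Those lengths were 4676 bases for Slc25a37 and 1887 for Slc25a28, where exons in GENCODE M21 cover 6021 and 3749 bases. Other lengths would move the ratio in every library alike, so its place against 1 is uncertain. Slc25a37 was higher in libraries 4, 5 and 6 than in the others, whereas Slc25a28 showed no such order. The erythroid markers stayed at or below 1.18 CPM in sum.

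The 3 uncoupling-like carriers, named for their likeness to uncoupling proteins, were of modest level. Slc25a27 stood at 3.96, 3.35, 5.45, 5.83, 6.64 and 6.44 CPM, a range of 1.96-fold (95% interval 1.58 to 2.50), lowest in libraries 1 and 2. Slc25a14 ranged 1.68-fold, highest at 6.24 CPM in library 5 and lowest at 3.70 CPM in library 2. Slc25a30 ranged 1.08-fold, and its interval of 0.976 to 1.19 includes 1.

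Of the 3 measured members with no role assigned here, Slc25a45 was the most abundant in FPKM, with 15.1, 15.4, 14.6, 21.0, 20.7 and 19.5 CPM. It ranged 1.44-fold and was higher in libraries 4, 5 and 6. Slc25a46, an outer membrane protein of the family that acts in mitochondrial fission and fusion, ranged 1.20-fold, from 46.3 to 55.4 CPM. Slc25a35 had the largest range of the measured members, 2.84-fold, from 18 reads in library 2 to 55 reads in library 5. Without the prior count the ratio was 3.04-fold (95% interval 1.76 to 5.50). Of the exonic bases of Slc25a35, 31.3% overlap Rangrf on the opposite strand, so its reads are uncertain. Slc25a53 ranged 1.86-fold, from 49 to 101 reads.

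Other mitochondrial transport genes were set beside the carriers. Of the family members with other names, Ucp2, the uncoupling protein of lymphoid cells, was by far the most abundant, at a median of 148 FPKM and at 287, 285, 282, 305, 308 and 341 CPM. Of 13 measured genes of the import machinery that inserts carriers into the membrane, 1 ranged 1.5-fold or more. That was Timm8a1, an intermembrane space chaperone, at 1.58-fold, and the most abundant was Tomm22, a receptor of the outer membrane, at a median of 64.2 FPKM. Of 13 measured genes for other inner membrane transport, 3 ranged 1.5-fold or more, led by Sfxn2, a sideroflexin, at 1.69-fold, and Smdt1, a calcium uniporter regulator, was the most abundant. Of 3 outer membrane channel genes and 5 measured genes of mitochondrial content, 0 ranged 1.5-fold. Vdac1, the main such channel, stood at 489, 517, 506, 433, 437 and 451 CPM, and Vdac2 had the highest channel level at a median of 113 FPKM. In the content list, Hspd1, a matrix chaperone, ranged 1.43-fold with 230.5, 244, 232, 329.8, 328 and 326 CPM, and Phb2, a prohibitin, was the most abundant at a median of 130.3 FPKM. Most of these genes averaged 10 CPM or more, where 13.5% of all genes ranged 1.5-fold. At that level 1 of 12 import genes, 0 of 9 genes for other inner membrane transport, 0 of 3 channel genes and 0 of 5 content genes did so.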

How the data were processed

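Per the labels' protocols, RNA came from a TRIzol extraction and the 6 sequencing libraries from a VAHTS Universal V5 kit. Tools listed in the submitters' processing notes are HISAT2, HTSeq, fastp, DESeq2 and R 3.2.0, with GRCm39 as assembly. Their settings, the annotation and the strand setting: not given in the sources used here. Deposited by the authors were raw read counts per gene and FPKM values per gene, 1 column per library. The deposited FPKM are the counts divided by length and library total, within a relative 1.63e-06, and are no separate evidence.

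The labels give no treatment, so no groups, tests or means with SD were formed. Counts were scaled with TMM factors of edgeR 4.0.16 in R 4.3.3, from 0.958 to 1.04. Ranges use log2 CPM with a prior count of 2 for genes averaging 1 CPM or more. The software was Python 3.11.15, scipy 1.17.1, pandas 2.3.3, numpy 2.4.6 and, for figures, matplotlib 3.10.9. Intervals are exact 95% binomial intervals: Clopper-Pearson for a share, conditional on the sum of both counts for a ratio, without the prior count. They cover counting error only, since reads without molecular identifiers are not independent molecules. No pair of libraries agreed within counting error, with a chi-square per gene, on plain totals, of at least 3.61.

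The members and gene lists were chosen with earlier results of these data known. Values in every library are given by rule for the 10 members highest in median FPKM, the 10 with the largest range among those averaging 5 CPM or more, and the members of 10 listed pairs, 25 genes in all, and for other lists the members with the highest FPKM and the widest range were named. Further members were named after their values were seen, and 1 member is counted but not reported here. Alternatives were DESeq2 1.42.0 size factors, plain totals, FPKM with a pseudocount of 0.1, a prior count of 0.5, a filter at 5 CPM, no filter, and each library left out. In simulated counts over 11516 genes, 100% of 100 genes made 3-fold different and 1.0% of 100 made 1.5-fold different ranged 2-fold or more, as did 7 of 11316 unchanged genes. The simulated counts held counting error only and the libraries differed by more, so the share of unchanged genes at 2-fold may be understated. The 1.5-fold limit was not scored in them. Shared sequence was counted over 50-base windows of GENCODE M21 transcripts on both strands, and exon overlap in the same annotation. That annotation and the RefSeq promoters are of GRCm38, another assembly than the one named by the submitters, and were matched by gene symbol.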

Additional observations from a re-analysis of the deposited data

Results flagged for a closer look

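Over the 6 libraries, Slc25a11, the malate/2-oxoglutarate carrier gene, had 1 library that stood away from the rest. Library 6 lay at 35.7 CPM and the other libraries between 31.4 and 32.6 CPM. The gap to the nearest library was 0.709 of the whole range on the log2 scale, above Dixon's 95% critical value for 6 values. Without library 6 its range was 1.04-fold, against 1.13-fold with it. All 36 measured carriers were screened in this way, chance alone marks about 1 gene in 20, and the 6 libraries are not known to be replicates of 1 group.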

How the results depend on the processing

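The count of carriers that ranged 1.5-fold or more was 10 with TMM factors, DESeq2 size factors or a prior count of 0.5, and 12 (33.3%) with plain totals or the deposited FPKM, against 30.8% and 28.4% of all genes, where Slc25a16 and Slc25a45 were added. It was 5 of 31 carriers at a minimum mean of 5 CPM and 17 of 44 (38.6%) without a filter, against 17.3% and 55% of all genes, because the filter changes how many low genes are counted. The count at 2-fold or more was 2 with TMM, DESeq2 factors, FPKM or the smaller prior count, 6 with plain totals (16.7%, against 11.2% of all genes), 0 at a minimum of 5 CPM (against 4.69%) and 8 without a filter (18.2%, against 32.2%). With 1 library left out, from 9 to 10 carriers ranged 1.5-fold and from 1 to 2 ranged 2-fold, where the single carrier was left without library 2. The highest summed level of the family was 1.02-fold above the lowest with TMM, 1.02-fold with DESeq2 factors, 1.09-fold with plain totals and 1.11-fold with FPKM. The composition factors, which differ by up to 0.12 log2 units for TMM and 0.15 for DESeq2, set this difference. Of 100 values for the ranges of the 25 named carriers under other settings, 82 stayed within the counting interval of the main value. The other 18 used plain totals or FPKM, and the same carriers moved under both, since FPKM follows plain totals. The smaller prior count hardly changes a range, so the share of 82 in 100 is no measure of robustness to scaling. Of 150 values with 1 library left out, 141 stayed within that interval. A range uses only its highest and lowest library, so leaving out any other library leaves it nearly unchanged by construction. Of 48 values for carrier pairs, 47 stayed within counting error. Slc25a24 over Slc25a25 varied 1.29-fold without library 6, against 1.56-fold with it. The spread of a pair ratio also uses only its extremes, so many of these values were fixed in advance and are a weak check. No paired analysis was possible because the labels put no library in a group. Depth limits the 8 members below 1 CPM most.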

Other observations

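Several carriers fell into the same order of libraries. For 14 of the 36 measured carriers the 3 highest libraries were libraries 4, 5 and 6, and for 4 they were libraries 1, 2 and 3. The 14 were Slc25a4, Slc25a10, Slc25a14, Slc25a16, Slc25a17, Slc25a26, Slc25a27, Slc25a32, Slc25a33, Slc25a35, Slc25a37, Slc25a40, Slc25a45 and Slc25a53, and the 4 were Slc25a3, Slc25a22, Slc25a23 and Slc25a36. Over all 11516 genes these orders were held by 30.3% and 29.1%. The order depended on the scaling, with 12 and 4 carriers under DESeq2 size factors and 22 and 3 under plain totals, where 46.5% and 18.2% of all genes held them. For 5 of the 36 carriers, Slc25a10, Slc25a32, Slc25a33, Slc25a37 and Slc25a45, the widest gap between neighbouring libraries fell between those 2 sets with libraries 4, 5 and 6 above, which 16.1% of all genes showed. For Slc25a33 that gap lay between 6.19 and 8.82 CPM, within values of 5.21, 6.19, 4.93, 9.20, 8.82 and 8.97 CPM. The same sets differed in the share of counts in protein-coding genes of the mitochondrial genome, on plain totals. That share was 1.90% to 2.02% in libraries 1, 2 and 3 and 2.37% to 2.45% in libraries 4, 5 and 6. With composition scaling, the sets differed in B cell markers (1.86 to 2.31 and 3.19 to 3.42 CPM) and in T cell markers (2200 to 2312 and 1877 to 1919 CPM). The part of these differences in the order was not tested. Of the T cell markers, Cd28, Cd3d, Cd3g and Lck were lower in libraries 4, 5 and 6, while Cd4 was higher there and Cd3e ranged 1.09-fold. The labels do not name these sets of libraries, and no average or test was made between them.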
